A study of Mus musculus with 64 samples.

Results

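The question here is how much of the transcriptional response of activated natural killer (NK) cells to prostaglandin E2 (PGE2) is lost when the receptor EP4 is removed in addition to EP2. It was read as a difference of differences in 14 of the 64 libraries of the series. The effect of PGE2 in EP2/EP4KO cells (3 libraries with PGE2 and 3 without) was set against the effect of PGE2 in EP2KO cells (4 and 4), all 14 after crosslinking of NK1.1, so that differences between the genotypes that are present without PGE2 cancel. EP2/EP4KO cells were of genotype GzmbCre Ptger2-/-Ptger4fl/fl, in which Cre driven by Gzmb deletes the floxed gene of EP4, and EP2KO cells were Ptger2-/-Ptger4fl/fl without Cre. Both therefore lack EP2 and carry the floxed Ptger4 alleles, and deletion of Ptger4 is limited to cells that have switched on Gzmb. Wild-type (WT) C57BL/6J cells (4 stimulated libraries with PGE2 and 4 without) served as an outside comparison. NK cells from the spleen were first expanded over 5 days in culture, with IL-2 at a low dose and the complex IL15:IL15Ra, then given 100 ng/ml PGE2 or nothing for 1 h and finally stimulated through NK1.1, an activating receptor, for 4 h, 5 h in all. The labels do not say whether replicates were separate animals, and the p-values below rest on a spread between libraries that may be technical.

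EP2 and EP4 are G protein-coupled receptors that couple to Gs and raise cyclic AMP, which activates protein kinase A and the transcription factor CREB. In lymphocytes this pathway is known to dampen signalling from activating receptors and the production of cytokines, while CREB target genes such as Crem are switched on. NK cells that meet a target through an activating receptor make cytokines and chemokines within hours, driven by NFAT, NF-kB, EGR and AP-1 factors.

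Total counts of the 14 libraries ran from 1002195 to 1693750, and levels are given in CPM, counts per 1000000 of a library's total after TMM scaling, at which 1 count in the median library is 0.718 CPM. All 12 NK cell markers were counted in every library, among them Ncr1 at 79.4 to 171 CPM, Eomes at 146 to 233 CPM and Klrb1c, which encodes NK1.1, at 107 to 198 CPM, and together they took 0.737% to 1.35% of counts. Of 10 B cell markers, 1 passed the filter on low counts, the immunoglobulin gene Ighm at 41.2 to 78.1 CPM, and the B cell receptor gene Cd79a had a count in 1 library. Of 13 T cell markers, 9 passed it. The T cell receptor genes Trbc1 and Trbc2 were at 207 to 422 CPM and 177 to 296 CPM, Cd28 was at 37.2 to 98.6 CPM and Cd3e at 0 to 9.21 CPM, and the part of such transcripts in the results was not tested. Basophil and mast cell markers took 0.0342% to 0.206% of counts in EP2/EP4KO cells with PGE2, 0.0287% to 0.281% in untreated EP2/EP4KO cells, 0.0636% to 0.556% in EP2KO cells with PGE2 and 0.0721% to 0.756% in untreated EP2KO cells, with EP2KO replicate 4 highest in both of its groups. Without replicate 4 of both EP2KO groups, the count of genes called below was 117 in place of 102, and 91 of the 102 were called again. EP2/EP4KO cells were male and EP2KO cells female by Xist (30.0 to 40.8 CPM against 566 to 761 CPM) and Y-linked genes. Only EP2/EP4KO cells carried GzmbCre, so sex, Cre and loss of EP4 cannot be told apart in any difference between these genotypes. Xist was thus counted in every EP2/EP4KO library, and the Y-linked Eif2s3y in every EP2KO library (2.90 to 14.5 CPM, against 86.9 to 124 CPM in EP2/EP4KO cells). The source of these counts, and its part in results for genes with few counts, was not tested. In these bulk samples, fewer cells of a type and less RNA per cell cannot be told apart either.

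The response to PGE2 differed between the genotypes at 102 of 10723 genes tested (0.951%) at an adjusted p under 0.05 in edgeR's quasi-likelihood test. The interaction is the log2 PGE2 effect in EP2/EP4KO cells minus that in EP2KO cells, given as log2 ± standard error (SE). It was negative for 52 genes (0.485% of genes tested), all of which PGE2 raised in EP2KO cells, and positive for 50 genes (0.466%), all of which PGE2 lowered in EP2KO cells. Over the 52 genes the median PGE2 effect was 0.06 in EP2/EP4KO cells and 1.33 in EP2KO cells. Over the 50 genes it was −0.04 in EP2/EP4KO cells and −1.17 in EP2KO cells. These medians share libraries with the interaction that chose the genes and only describe them. The levels per library below come from the same libraries, and most genes named were chosen by the interaction. A gap between the EP2KO libraries with PGE2 and all others is therefore a description. The share of all genes with such a gap was not counted. The median interaction of all genes tested was 0.03.

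Within each genotype, PGE2 called 0 genes in stimulated EP2/EP4KO cells (0% of genes tested, n = 3 and 3) and 782 in stimulated EP2KO cells (7.29%, with 364 higher, 3.39%, and 418 lower, 3.9%, n = 4 and 4). In EP2/EP4KO cells DESeq2 also called 0, and 260 genes (2.42%) had an unadjusted p under 0.05. With same-numbered libraries as blocks, 2 genes passed in EP2/EP4KO cells, which are named after their values were seen: Cables1, a regulator of cyclin-dependent kinases (1.15 ± 0.22, adjusted p = 0.0109, against 0.0842 without the blocks) and the predicted gene Gm8373 (−1.94 ± 0.39, adjusted p = 0.0201, against 0.184). In simulated counts with the same libraries, edgeR's test of the interaction found 1.49% of the genes given a 1.5-fold difference. It found 34.3% at a 2-fold and 74.2% at a 4-fold difference. Differences between the genotypes of 2-fold or less were thus mostly not detectable at this depth. When the fit held only these 14 libraries in place of all 64, 41 genes were called, and 23 of the 54 called genes named below lost their call. With same-numbered libraries as blocks the interaction called more genes, a count given below with the other alternatives. Leaving out EP2/EP4KO untreated replicate 2 gave 3 calls in EP2/EP4KO cells.

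**Figure D1:**
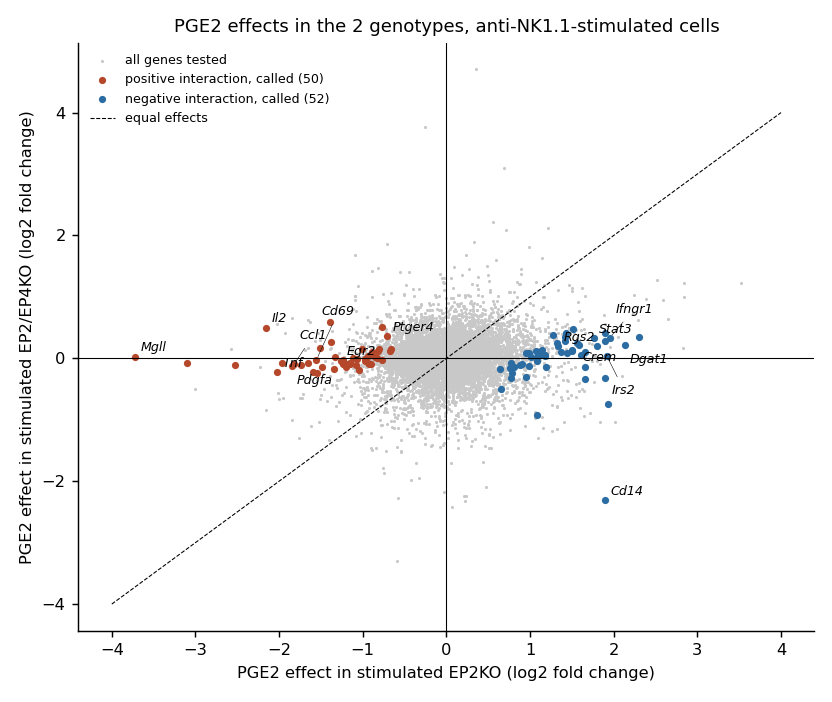
PGE2 effect of each gene tested in stimulated EP2KO cells (x axis, log2 fold change) against that in stimulated EP2/EP4KO cells (y axis, log2 fold change). The 50 genes with a positive interaction (red) and the 52 with a negative one (blue) lie along the horizontal axis, with medians of −0.04 and 0.06 on the y axis and −1.17 and 1.33 on the x axis, and the dashed line marks equal effects.

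Among the 52 genes that PGE2 raised in EP2KO cells were 4 from a list of genes taken as cAMP-PKA-CREB targets. Whether cyclic AMP raised them here was not tested. Of 28 tested genes of the cAMP-PKA-CREB list, 4 had a negative interaction and 0 a positive one, against 0.485% and 0.466% of all genes tested, and the median interaction of the list was −0.11 beside 0.03 for all genes. PGE2 raised 10 and lowered 2 of the 28 in EP2KO cells, beside 3.39% and 3.9% of all genes tested, and called 0 in EP2/EP4KO cells. The 4 genes were Stat3, Rgs2, Sik1 and Crem.

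Crem stood at 127, 111 and 89.5 CPM in EP2/EP4KO cells with PGE2 and 87.6, 100.0 and 87.1 CPM without it, against 197, 226, 277 and 166 CPM in EP2KO cells with PGE2 and 70.9, 73.3, 98.8 and 52.1 CPM without it. Crem encodes a cyclic AMP-responsive transcription factor whose short isoform represses CREB targets. All 4 EP2KO libraries with PGE2 lay above every other library, and the EP2/EP4KO libraries with and without PGE2 overlapped. The PGE2 effect was 0.25 ± 0.22 in EP2/EP4KO cells and 1.56 ± 0.19 in EP2KO cells, and the interaction was −1.31 ± 0.29, adjusted p = 0.00741. Stat3 stood at 232, 285 and 252 CPM in EP2/EP4KO cells with PGE2 and 195, 208 and 209.7 CPM without it, against 614, 627, 658 and 540.3 CPM in EP2KO cells with PGE2 and 179, 175, 196 and 169 CPM without it. Stat3 encodes the transcription factor that acts downstream of IL-6, IL-10 and IL-21 receptors. The 4 EP2KO libraries with PGE2 again lay above every other library, and here the 3 EP2/EP4KO libraries with PGE2 also lay above the 3 without. The share of all genes whose EP2/EP4KO libraries separate in this way was not counted. The effect was 0.33 ± 0.15 in EP2/EP4KO cells and 1.76 ± 0.13 in EP2KO cells (95% confidence interval in EP2/EP4KO 0.03 to 0.63, adjusted p = 1), and the interaction was −1.43 ± 0.20, adjusted p = 4.11e-06.

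Sik1, a salt-inducible kinase that restrains the CREB coactivators, had an interaction of −1.80 ± 0.39, adjusted p = 0.00493. Its level was 40.7 to 54.9 CPM in EP2KO cells with PGE2 and 12.1 to 20.001 CPM in the other 3 groups. Rgs2, which shortens signalling by G proteins, had an interaction of −1.14 ± 0.24, adjusted p = 0.0036, with a PGE2 effect of 0.20 ± 0.18 in EP2/EP4KO cells and 1.33 ± 0.16 in EP2KO cells. The phosphodiesterase genes Pde4b and Pde4d, whose products break down cyclic AMP, had PGE2 effects of 0.48 ± 0.19 and 0.44 ± 0.36 in EP2/EP4KO cells against 1.31 ± 0.16 and 1.90 ± 0.26 in EP2KO cells. Their interactions of −0.84 ± 0.25 (adjusted p = 0.0939) and −1.47 ± 0.46 (adjusted p = 0.134) did not pass. Nr4a1, often used as a cyclic AMP target, had an interaction of 0.25 ± 0.29 (adjusted p = 0.92), with effects of 0.33 ± 0.22 in EP2/EP4KO cells and 0.08 ± 0.19 in EP2KO cells. Of the 26 tested genes for cyclic AMP production, protein kinase A and phosphodiesterases, 0 had a called interaction, beside 0.951% of all genes tested. PGE2 raised 6 of the 26 in EP2KO cells, beside 3.39% of all genes tested.

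Of the called genes with a mean log2 CPM of at least 4, those with the most negative interactions that are described here ran from −1.91 to −1.36. Ifngr1 stood at 296, 303 and 248 CPM in EP2/EP4KO cells with PGE2 and 215, 218 and 239 CPM without it, against 745, 817, 992 and 597 CPM in EP2KO cells with PGE2 and 192, 179, 232 and 211 CPM without it. Ifngr1 (chromosome 10, 19591949 to 19610229, GRCm38) encodes the ligand-binding chain of the interferon-gamma receptor. Its PGE2 effect was 0.33 ± 0.17 in EP2/EP4KO cells and 1.95 ± 0.15 in EP2KO cells, and the interaction was −1.62 ± 0.22, adjusted p = 3.02e-06. The 3 EP2/EP4KO libraries with PGE2 lay above the 3 without, a separation whose share over all genes was not counted. Irs2 stood at 19.9, 26.1 and 26.3 CPM in EP2/EP4KO cells with PGE2 and 23.3, 20.001 and 27.6 CPM without it, against 90.4, 92.3, 95.4 and 71.7 CPM in EP2KO cells with PGE2 and 23.6, 23.0, 25.1 and 21.0 CPM without it. Irs2, an adaptor of the insulin, IGF-1 and IL-4 receptors, showed an effect of 0.04 in EP2/EP4KO cells with a 95% confidence interval of −0.45 to 0.53, which does not reach the 1.92 ± 0.19 of EP2KO cells (interaction −1.88 ± 0.31, adjusted p = 0.000138).

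Dgat1 stood at 25.2, 20.9 and 19.9 CPM in EP2/EP4KO cells with PGE2 and 10.9, 28.8 and 15.6 CPM without it, against 68.0, 47.3, 72.8 and 83.3 CPM in EP2KO cells with PGE2 and 15.8, 9.34, 16.5 and 20.2 CPM without it. Dgat1 encodes the enzyme of the last step of triglyceride synthesis, and its interaction was −1.91 ± 0.37, adjusted p = 0.00124. Every EP2KO library with PGE2 lay above every other library for Dgat1, Irs2 and Ifngr1, which were chosen by the interaction in these same libraries. Without EP2/EP4KO untreated replicate 2 the interaction of Dgat1 was −1.42 with an adjusted p of 0.1. Receptors and transporters among these genes were the costimulatory receptor gene Icos (−1.61 ± 0.25), the drug efflux pump gene Abcb1a (−1.61 ± 0.31) and P2ry10, a G protein-coupled receptor gene of lymphocytes (−1.36 ± 0.23). The others were the ubiquitin ligase gene Rnf125 (−1.56 ± 0.30), the GABA-B receptor subunit gene Kctd12 (−1.56 ± 0.28), the transferrin gene Trf (−1.47 ± 0.36), the secreted fibrinogen-like gene Fgl2 (−1.39 ± 0.27), the vesicle transport gene Sft2d2 (−1.36 ± 0.32) and the autophagy gene Tecpr1 (−1.36 ± 0.26). Trf and Sft2d2 lost their calls in 7 and 4 of 20 alternatives, at adjusted p up to 0.108 and 0.0708.

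The promoters of the 4 most negative of these genes with an entry in the RefSeq table (GRCm38.p6), from 250 bases before to 50 after the transcript start, are shown because cyclic AMP acts on many targets through the cyclic AMP response element (CRE, TGACGTCA) next to the start. Each is written 5′ to 3′ on the strand of its gene, and capitals mark a CRE half-site (TGACG on either strand, which also lies inside every full CRE). Irs2 is at chr8:11008880-11009179 (minus strand, with the GENCODE gene start 471 bases downstream of the table's start), Ifngr1 at chr10:19591699-19591998 (plus strand), Abcb1a at chr5:8566841-8567140 (plus strand, at a start 92986 bases upstream of the GENCODE gene start) and Kctd12 at chr14:102982588-102982887 (minus strand).
Irs2: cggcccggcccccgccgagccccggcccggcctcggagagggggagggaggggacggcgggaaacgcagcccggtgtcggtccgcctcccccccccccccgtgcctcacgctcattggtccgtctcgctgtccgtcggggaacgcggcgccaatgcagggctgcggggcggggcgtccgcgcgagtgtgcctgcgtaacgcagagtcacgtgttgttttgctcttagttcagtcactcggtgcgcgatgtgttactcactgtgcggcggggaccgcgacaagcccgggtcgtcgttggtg
Ifngr1: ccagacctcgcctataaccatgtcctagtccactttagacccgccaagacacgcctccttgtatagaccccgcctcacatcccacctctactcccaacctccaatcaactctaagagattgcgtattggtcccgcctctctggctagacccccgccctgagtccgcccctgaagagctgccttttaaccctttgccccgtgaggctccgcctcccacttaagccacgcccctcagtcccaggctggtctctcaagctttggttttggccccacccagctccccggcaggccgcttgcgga
Abcb1a: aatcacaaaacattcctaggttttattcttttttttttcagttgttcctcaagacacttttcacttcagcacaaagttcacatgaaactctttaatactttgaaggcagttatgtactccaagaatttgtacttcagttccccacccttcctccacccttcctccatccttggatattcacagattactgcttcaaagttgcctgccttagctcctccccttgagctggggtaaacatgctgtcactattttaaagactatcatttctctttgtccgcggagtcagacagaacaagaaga
Kctd12: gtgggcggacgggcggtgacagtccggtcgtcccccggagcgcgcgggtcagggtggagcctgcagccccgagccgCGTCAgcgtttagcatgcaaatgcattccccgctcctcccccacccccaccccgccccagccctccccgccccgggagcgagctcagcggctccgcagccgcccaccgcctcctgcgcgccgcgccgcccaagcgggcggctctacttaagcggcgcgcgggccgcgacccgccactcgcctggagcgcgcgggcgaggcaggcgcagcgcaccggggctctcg
No full CRE lies in these windows, and 1 half-site lies in that of Kctd12, 174 bases before the start. Of 53 promoters listed for 40 of the 52 negative genes, 1.89% held a full CRE and 20.8% a half-site, against 3.35% and 33.2% of the 10165 promoters of genes tested. A match of letters is a description and not a binding site.

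Of 21 trafficking and adhesion genes, 1 had a negative and 1 a positive interaction, beside 0.485% and 0.466% of all genes tested, and the list median was −0.48. The negative one was Ccr2, a receptor for the chemokine CCL2. Ccr2 stood at 305, 333 and 338 CPM in EP2/EP4KO cells with PGE2 and 328, 323 and 312 CPM without it, against 536, 487, 589 and 523 CPM in EP2KO cells with PGE2 and 253, 272, 257 and 221 CPM without it. The 4 EP2KO libraries with PGE2 lay above every other library, and the interaction was −1.07 ± 0.22, adjusted p = 0.0034. PGE2 raised 8 of the 21 genes in EP2KO cells, beside 3.39% of all genes tested. Among the 8 was Ccr7, a receptor for homing to lymph nodes, with effects of 1.22 ± 0.59 in EP2/EP4KO cells and 3.52 ± 0.52 in EP2KO cells. The interaction of Ccr7 was −2.30 ± 0.86 and did not pass (adjusted p = 0.284). The 23 NK transcription factors had a list median of −0.03. Of these, 2 had a negative interaction and 0 a positive one, beside 0.485% and 0.466% of all genes tested. They were Tcf7, which encodes TCF-1 (−0.98 ± 0.24, adjusted p = 0.0189), and Foxo1, a factor of lymphocyte quiescence (−0.91 ± 0.24, adjusted p = 0.0354). Tcf7 and Foxo1 lost their calls in 7 and 10 of 20 alternatives, at adjusted p up to 0.084 and 0.25. Cdkn1b, the cell cycle inhibitor p27, had an interaction of −1.07 ± 0.21, adjusted p = 0.00191. Cd14, a monocyte marker, was called at −4.20 ± 1.09, adjusted p = 0.0333 from a mean of 4.86 CPM, the only called gene of 8 macrophage and dendritic cell markers, and lost its call in 11 of 19 alternatives. ILC1 markers took 0.0171% to 0.0247% of counts in EP2/EP4KO cells with PGE2, 0.0145% to 0.0253% without it, 0.0271% to 0.0357% in EP2KO cells with PGE2 and 0.0184% to 0.0277% without it, with 0 of 8 called, and their part in these results was not tested.

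**Figure D2:**
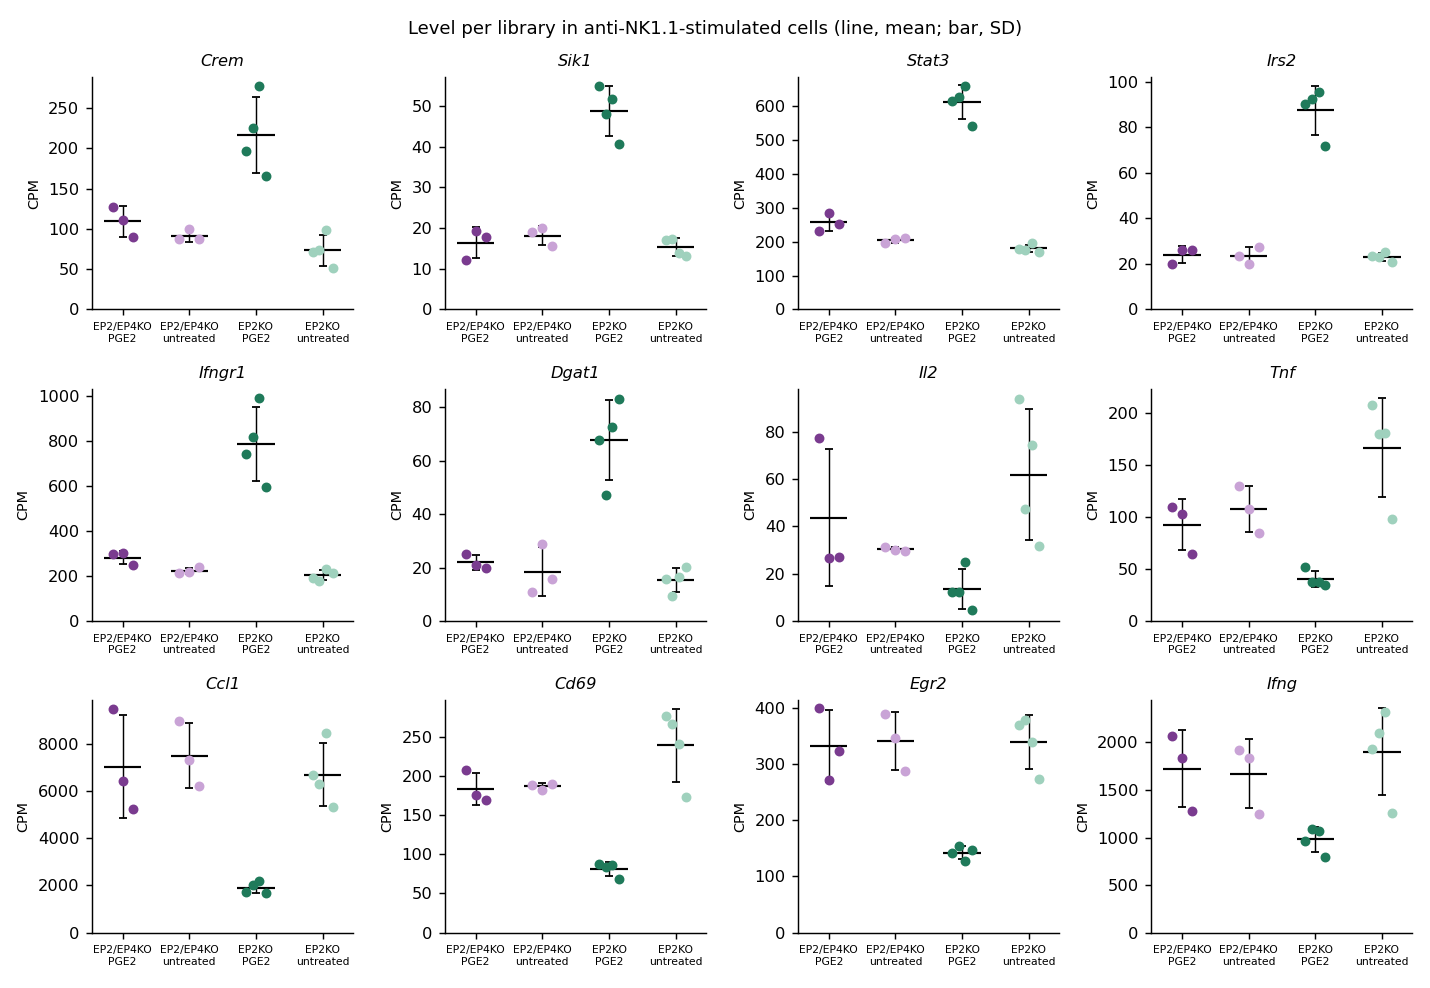
Level in CPM of 12 genes in each of the 14 stimulated libraries (points), with the group mean (line) and SD (bar), for EP2/EP4KO cells with PGE2 and untreated and EP2KO cells with PGE2 and untreated. For Crem, Sik1, Stat3, Irs2, Ifngr1 and Dgat1 the 4 EP2KO libraries with PGE2 stand above every other library. For Il2, Tnf, Ccl1, Cd69, Egr2 and Ifng they stand below every other library. Most of these genes were chosen by the interaction in these same libraries, and the share of all genes that separate in this way was not counted.

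Among the 50 genes that PGE2 lowered in EP2KO cells were cytokine genes. Of 15 tested cytokine genes, 5 had a positive interaction (Il2, Tnf, Tnfsf14, Tnfsf8 and Csf2) and 0 a negative one, beside 0.466% and 0.485% of all genes tested. The list median was 1.00 beside 0.03 for all genes. PGE2 lowered 8 and raised 1 of the 15 in EP2KO cells, beside 3.9% and 3.39% of all genes tested. It called 0 in EP2/EP4KO cells, where the list median was 0.02 against −0.96 in EP2KO cells.

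Tnf stood at 110.2, 103 and 64.7 CPM in EP2/EP4KO cells with PGE2 and 129.9, 108 and 85.0 CPM without it, against 52.1, 37.4, 38.0 and 34.9 CPM in EP2KO cells with PGE2 and 208, 179.7, 181 and 97.9 CPM without it. Tnf (chromosome 17, 35199381 to 35202007) encodes tumour necrosis factor. All 4 EP2KO libraries with PGE2 lay below every other library, and the 2 EP2/EP4KO groups overlapped. The PGE2 effect was −0.22 ± 0.23 in EP2/EP4KO cells and −2.03 ± 0.21 in EP2KO cells, and the interaction was 1.81 ± 0.31, adjusted p = 0.00024. Il2 stood at 77.2, 26.9 and 27.0 CPM in EP2/EP4KO cells with PGE2 and 31.4, 30.0 and 29.7 CPM without it, against 12.3, 12.2, 25.1 and 4.84 CPM in EP2KO cells with PGE2 and 93.8, 47.4, 74.5 and 31.9 CPM without it. Il2 encodes the T cell growth factor IL-2 and had the most positive interaction among the genes with a mean log2 CPM of at least 4 (2.66 ± 0.50, adjusted p = 0.000943). EP2/EP4KO replicate 1 with PGE2 was the highest of its group, at 77.2 CPM, and without it the interaction was 1.98 (adjusted p = 0.0309). The 4 untreated EP2KO libraries lay above the 3 untreated EP2/EP4KO libraries, so the genotypes already stood apart for Il2 without PGE2, although that contrast did not pass (adjusted p = 0.658). When the fit held only the 14 libraries, the adjusted p of Il2 was 0.209.

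The promoter of Il2 is shown because it is a textbook target of NFAT, the factor that activating receptors switch on through calcium. It lies at chr3:37125905-37126204 (RefSeq, GRCm38.p6, minus strand, with the GENCODE gene start 5 bases upstream of the table's start) and is written 5′ to 3′ on the strand of the gene, with the NFAT core GGAAA on either strand in capitals.
Il2: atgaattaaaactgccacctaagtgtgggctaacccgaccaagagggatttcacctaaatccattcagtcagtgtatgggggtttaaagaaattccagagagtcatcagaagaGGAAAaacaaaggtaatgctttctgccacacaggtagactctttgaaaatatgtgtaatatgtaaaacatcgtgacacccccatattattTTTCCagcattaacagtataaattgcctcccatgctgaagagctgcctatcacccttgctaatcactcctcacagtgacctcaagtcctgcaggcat
The 2 cores begin 137 and 47 bases before the start. The core was present in 67.3% of 55 promoters listed for 39 of the 50 positive genes and in 59.8% of the promoters of genes tested, and it is common in any sequence of this length. An AP-1 motif (TGANTCA, either strand) was present in 12.7% and 4.85%, and is not in the window of Il2.

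Tnfsf14, which encodes LIGHT, and Tnfsf8, the CD30 ligand, had interactions of 1.57 ± 0.26, adjusted p = 0.000144 and 1.30 ± 0.24, adjusted p = 0.00065. Csf2, which encodes GM-CSF, was near the threshold (1.36 ± 0.36, adjusted p = 0.049) and lost its call in 8 of 20 alternatives, at adjusted p up to 0.592. Ifng stood at 2064, 1832 and 1275 CPM in EP2/EP4KO cells with PGE2 and 1918, 1838 and 1252 CPM without it, against 967, 1093, 1063 and 799 CPM in EP2KO cells with PGE2 and 1931, 2104, 2325 and 1257 CPM without it. Ifng encodes interferon-gamma, the main effector cytokine of NK cells. Its EP2KO libraries with PGE2 lay below every other library, with an effect of 0.05 ± 0.21 in EP2/EP4KO cells and −0.96 ± 0.18 in EP2KO cells, and the interaction of 1.00 ± 0.27 missed the threshold at an adjusted p of 0.0501 with edgeR. It passed in 8 of 20 alternatives, at adjusted p from 0.00132 to 0.251 over all 20.

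Of 10 tested chemokine genes, Ccl1 had a positive interaction and 0 had a negative one, beside 0.466% and 0.485% of all genes tested. The list median was 0.64. Ccl1 stood at 9473, 6429 and 5234 CPM in EP2/EP4KO cells with PGE2 and 8964, 7312 and 6222 CPM without it, against 1741, 2004, 2175 and 1686 CPM in EP2KO cells with PGE2 and 6711, 6314, 8487 and 5322 CPM without it. Ccl1, a ligand of CCR8, was the most abundant called gene, and its EP2KO libraries with PGE2 lay below every other library (effect −0.09 ± 0.22 in EP2/EP4KO cells and −1.82 ± 0.20 in EP2KO cells, interaction 1.73 ± 0.30, adjusted p = 0.000254). Xcl1, which attracts cross-presenting dendritic cells, had PGE2 effects of 0.03 ± 0.19 in EP2/EP4KO cells and −0.70 ± 0.17 in EP2KO cells, and its interaction of 0.73 ± 0.25 did not pass (adjusted p = 0.21). Ccl3 and Ccl4 had interactions of 0.95 ± 0.36 (adjusted p = 0.308) and 0.85 ± 0.29 (adjusted p = 0.201), with PGE2 effects of 0.05 ± 0.27 and 0.07 ± 0.22 in EP2/EP4KO cells and −0.90 ± 0.24 and −0.78 ± 0.19 in EP2KO cells. Ccl5 had an interaction of 0.08 ± 0.31, with effects of 0.12 ± 0.23 in EP2/EP4KO cells and 0.04 ± 0.20 in EP2KO cells. Pdgfa was at 269, 318 and 406 CPM in EP2/EP4KO cells with PGE2 and 322, 364 and 396 CPM without it, against 123, 129, 116 and 106 CPM in EP2KO cells with PGE2 and 464, 424, 506 and 315 CPM without it. Pdgfa, which encodes a chain of platelet-derived growth factor, separated in the same way (interaction 1.72 ± 0.24, adjusted p = 4.16e-06).

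The 26 immediate early genes had a list median of 0.47. Of these, 4 had a positive interaction and 0 a negative one, beside 0.466% and 0.485% of all genes tested. They were the early growth response genes Egr1 (1.34 ± 0.26, adjusted p = 0.00116), Egr2 (1.22 ± 0.21, adjusted p = 0.000257) and Egr3 (1.16 ± 0.27, adjusted p = 0.012) and the MAP kinase phosphatase gene Dusp2 (1.07 ± 0.20, adjusted p = 0.000729). Egr2 stood at 399.8, 272 and 324 CPM in EP2/EP4KO cells with PGE2 and 389, 346 and 287 CPM without it, against 141, 154, 128 and 146 CPM in EP2KO cells with PGE2 and 369, 379, 339 and 273 CPM without it. EP2KO libraries with PGE2 lay below every other library for Egr2, and the 2 EP2/EP4KO groups overlapped. Egr3 lost its call with only the 14 libraries (adjusted p = 0.0778) and without EP2KO untreated replicate 1 (adjusted p = 0.0507). In EP2KO cells PGE2 lowered 9 of the 26 and raised 4, beside 3.9% and 3.39% of all genes tested. Among the raised were Dusp5 (1.12 ± 0.15) and Fosl2 (0.98 ± 0.20), whose effects in EP2/EP4KO cells were 0.44 ± 0.18 and 0.35 ± 0.23 and whose interactions did not pass (adjusted p = 0.203 and 0.57).

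The 26 genes of the NF-kB and NFAT pathway had a list median of 0.35. Of these, 4 had a positive interaction and 0 a negative one, beside 0.466% and 0.485% of all genes tested. They were Rel, which encodes the NF-kB subunit c-Rel (1.06 ± 0.20, adjusted p = 0.000729), the inhibitor genes Nfkbia (0.86 ± 0.20, adjusted p = 0.00997) and Nfkbid (0.94 ± 0.23, adjusted p = 0.0179), and Cd83, a surface marker of activated cells (1.69 ± 0.38, adjusted p = 0.00945). Rel stood at 839, 837 and 863 CPM in EP2/EP4KO cells with PGE2 and 1059, 779 and 859.9 CPM without it, against 536, 495, 418 and 498 CPM in EP2KO cells with PGE2 and 1214, 1181, 1225 and 702 CPM without it. The 4 EP2KO libraries with PGE2 lay below every other library. Rel and Nfkbia lost their calls with only the 14 libraries (adjusted p = 0.0695 and 0.0778). Cd83 lost its call without EP2/EP4KO untreated replicate 3 (adjusted p = 0.0546) or EP2/EP4KO PGE2 replicate 1 (adjusted p = 0.0552), and Nfkbid lost its call in 7 of 20 alternatives. Nfatc1 had PGE2 effects of 0.03 ± 0.15 in EP2/EP4KO cells and −0.59 ± 0.13 in EP2KO cells, and its interaction of 0.62 ± 0.20 did not pass (adjusted p = 0.164). Other transcription factor genes among the 15 most positive interactions were Pou2f2, which encodes OCT-2 (1.89 ± 0.36, adjusted p = 0.000937), and the zinc finger gene Hivep3 (1.63 ± 0.26, adjusted p = 7.78e-05). The remaining ones were the MAP kinase scaffold gene Ksr1 (1.64 ± 0.35), the stress kinase gene Plk3 (1.38 ± 0.31) and the autophagy gene Nrbf2 (1.29 ± 0.31), which lost its call in 5 of 19 alternatives.

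Cd69 stood at 207, 175 and 169 CPM in EP2/EP4KO cells with PGE2 and 189, 183 and 189 CPM without it, against 87.5, 83.2, 85.7 and 68.7 CPM in EP2KO cells with PGE2 and 276, 267, 241 and 173 CPM without it. Cd69, an early activation marker that retains lymphocytes in tissue, had the smallest adjusted p of all 102 genes (interaction 1.53 ± 0.20, adjusted p = 1.58e-06) and was the positive gene of the trafficking list. Its EP2KO libraries with PGE2 lay below every other library, and its effect in EP2/EP4KO cells was −0.02 with a 95% confidence interval of −0.32 to 0.27. Of 23 NK activating receptors and adaptors, 4 had a positive interaction and 0 a negative one, beside 0.466% and 0.485% of all genes tested. The list median was 0.06, and the 4 were the adaptor gene Lcp2, which encodes SLP-76 (0.97 ± 0.18, adjusted p = 0.000673), the receptor genes Cd244a, encoding 2B4 (1.14 ± 0.26, adjusted p = 0.0097), and Slamf7 (0.95 ± 0.22, adjusted p = 0.011), and Crtam, a receptor for nectin-like 2 (0.88 ± 0.22, adjusted p = 0.0189). With only the 14 libraries, Lcp2 and Slamf7 (adjusted p = 0.0778 for both) and Cd244a lost their calls. Cd244a also lost its call without EP2/EP4KO untreated replicate 1 (adjusted p up to 0.072), and Crtam lost its call in 7 of 20 alternatives. Ncr1 and Klrb1c, which encode the receptors NKp46 and NK1.1, had interactions of 0.14 ± 0.24 and 0.06 ± 0.21. Of 18 inhibitory receptors, 1 was called, beside 0.951% of all genes tested. It was Havcr2, which encodes TIM-3 (1.06 ± 0.28, adjusted p = 0.0342), and it lost its call in 9 of 20 alternatives.

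Cytotoxicity genes were mostly below the threshold. Their list median was 0.20. Of 25 tested, 1 had a positive interaction and 0 a negative one, beside 0.466% and 0.485% of all genes tested. It was Rab27a, which docks lytic granules at the membrane (0.84 ± 0.21, adjusted p = 0.0291, lost in 8 of 20 alternatives). Prf1, which encodes perforin, had effects of 0.10 ± 0.20 in EP2/EP4KO cells and −0.61 ± 0.18 in EP2KO cells, and its interaction of 0.72 ± 0.27 did not pass (adjusted p = 0.282). For Gzmb, which encodes granzyme B and whose regulatory sequence drives Cre here, the interaction was 0.52 ± 0.35 (adjusted p = 0.746). Of 24 IL-2/IL-15-STAT5 targets, 3 had a positive interaction and 0 a negative one, beside the same 0.466% and 0.485% of all genes tested. The list median was 0.17, and the 3 were the cyclin gene Ccnd2 (0.94 ± 0.20, adjusted p = 0.0036), the kinase gene Pim1 (0.81 ± 0.18, adjusted p = 0.00652) and Bcl2l1, which encodes BCL-XL (1.09 ± 0.26, adjusted p = 0.0129). With only the 14 libraries, Ccnd2 and Pim1 lost their calls (adjusted p = 0.107 and 0.114), as did Bcl2l1. Bcl2l1 had an adjusted p of 0.0713 without EP2/EP4KO untreated replicate 3 and of 0.126 without EP2/EP4KO PGE2 replicate 1. Of 22 heat shock and stress response genes, the chaperone gene Hspa5 was called (0.80 ± 0.20, adjusted p = 0.0179), and it lost its call in 6 of 20 alternatives. All 28 ribosome biogenesis genes were without a called interaction, at a list median of 0.44. PGE2 lowered 10 of the 28 in EP2KO cells and 0 in EP2/EP4KO cells, beside 3.9% and 0% of all genes tested. The interaction called 0 of 22 interferon-stimulated, 0 of 21 glycolysis and nutrient transport, 0 of 19 cholesterol synthesis and 0 of 10 sex-linked genes, 1 of 23 cytokine receptor genes (Ifngr1) and 2 of 32 cell cycle genes (Cdkn1b and Ccnd2). It called 0 of 9 T cell, 0 of 6 neutrophil, 0 of 3 erythroid and 0 of 10 basophil and mast cell markers. Of all genes tested it called 0.951%.

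Of 10 tested genes of the prostanoid pathway, Ptger4 had a positive interaction and 0 had a negative one, beside 0.466% and 0.485% of all genes tested. The list median was 0.53. Ptger4 stood at 80.7, 76.8 and 125 CPM in EP2/EP4KO cells with PGE2 and 77.3, 68.1 and 75.8 CPM without it, against 39.0, 30.5, 33.2 and 32.9 CPM in EP2KO cells with PGE2 and 60.1, 68.3, 52.8 and 41.2 CPM without it. Ptger4 (chromosome 15, 5206661 to 5244187) encodes EP4. Its libraries did not overlap between EP2/EP4KO and EP2KO cells with PGE2 (94.2 ± 26.8 CPM and 33.9 ± 3.62 CPM, SD, n = 3 and 4, exact permutation p = 0.0286, two-sided and the smallest possible here, 0.114 adjusted over 4 tests). Without PGE2 they stood at 73.8 ± 4.93 CPM and 55.6 ± 11.5 CPM (exact permutation p = 0.0857, adjusted 0.114). PGE2 lowered Ptger4 in EP2KO cells, with effects of 0.36 ± 0.20 in EP2/EP4KO cells and −0.71 ± 0.19 in EP2KO cells and an interaction of 1.07 ± 0.28, adjusted p = 0.0306, which was lost in 9 of 20 alternatives. Without EP2/EP4KO PGE2 replicate 3, at 125 CPM, the interaction was 0.80 with an adjusted p of 0.228. Ptger2, which encodes EP2, stood at 14.9 ± 0.10 CPM in EP2/EP4KO cells with PGE2 and 7.73 ± 3.29 CPM in EP2KO cells with PGE2 (exact permutation p = 0.0571, adjusted 0.114), and at 11.1 ± 2.69 and 9.67 ± 3.45 CPM without it (exact permutation p = 0.6). A 3' tag can lie outside the deleted part of a gene, and where the deletions lie is not given in the sources used here, so these levels check neither knockout.

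Without PGE2, 9 genes differed between stimulated EP2/EP4KO and EP2KO cells (0.0839% of genes tested). In EP2/EP4KO cells, 5 were higher (0.0466%), the Y-linked Ddx3y, Eif2s3y, Kdm5d and Uty and also Ms4a6b, and 4 were lower (0.0373%), Xist, Tsix, Etv5 and Iqgap2. Counts given to Tsix, which lies antisense to Xist, cannot be separated from those of Xist because no strand setting is stated. Ms4a6b, which encodes a membrane protein, is the only one of the 9 whose interaction was also called (−0.99 ± 0.24, adjusted p = 0.0148), and the 2 comparisons share libraries. Ms4a6b stood at 68.5, 55.2 and 46.9 CPM in EP2/EP4KO cells with PGE2 and 67.1, 60.6 and 56.0 CPM without it, against 55.7, 68.7, 58.2 and 64.9 CPM in EP2KO cells with PGE2 and 28.6, 37.4, 32.1 and 36.5 CPM without it. The EP2/EP4KO libraries with and without PGE2 overlapped each other, and both groups lay above untreated EP2KO cells. Over the 50 positive genes the untreated difference, EP2/EP4KO minus EP2KO, was below 0 for 39 (median −0.18). Over the 52 negative genes it was above 0 for 44 (median 0.21), beside a median of 0.002 for all genes tested. The interaction subtracts this difference, so choice of genes by the interaction and a genotype difference without PGE2 cannot be told apart here.

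**Figure D3:**
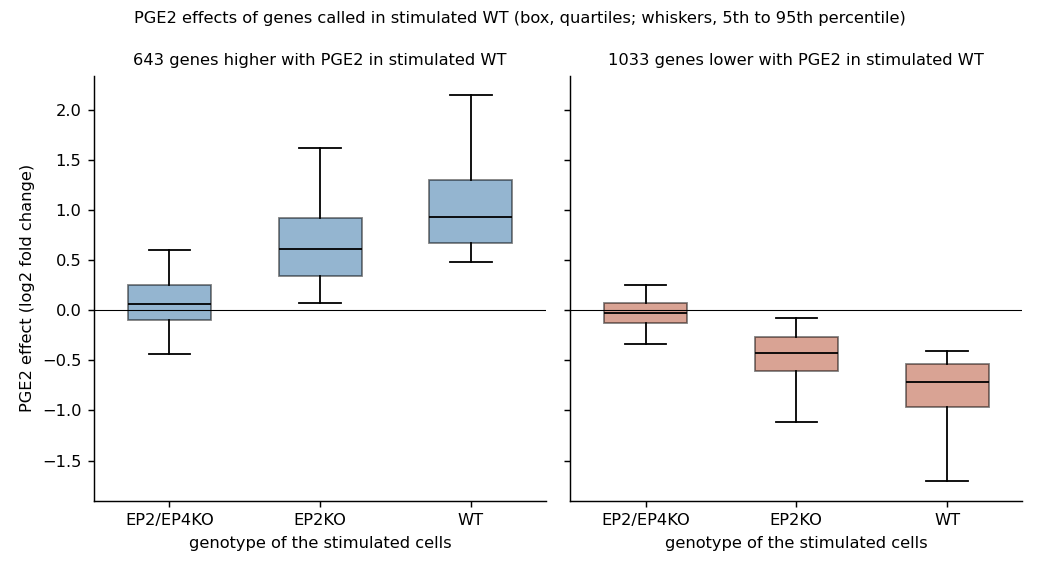
PGE2 effect (log2 fold change, y axis) of the 643 genes higher and the 1033 genes lower with PGE2 in stimulated WT cells, in EP2/EP4KO, EP2KO and WT cells (x axis); boxes are quartiles and whiskers the 5th to 95th percentile. Medians were 0.07, 0.61 and 0.93 for the higher genes and −0.03, −0.42 and −0.71 for the lower genes, where the WT boxes show the values by which the genes were chosen.

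Genes of the WT response to PGE2 give a view from libraries that neither knockout comparison used. PGE2 called 1676 genes in stimulated WT cells (15.6% of genes tested, n = 4 and 4), 643 higher (6%) and 1033 lower (9.63%). Over the 643 genes the median effect was 0.07 in EP2/EP4KO cells and 0.61 in EP2KO cells, and over the 1033 genes it was −0.03 in EP2/EP4KO cells and −0.42 in EP2KO cells. An effect beyond 1 in size on the log2 scale was seen for 12 of the 643 and 0 of the 1033 genes in EP2/EP4KO cells. In EP2KO cells it was seen for 130 and 73 of them. The share of all genes with an effect of this size was not counted. Of the 643 genes, 50 had a called negative interaction and 0 a positive one (7.78%). Of the 1033 genes, 48 had a positive one and 0 a negative one (4.65%). Of all genes tested, 0.485% had a negative one and 0.466% a positive one. Across the 1676 genes, which are not independent replicates, effects in EP2/EP4KO cells correlated with those in WT at r = 0.237 with a slope of 0.06, and effects in EP2KO cells at r = 0.898 with a slope of 0.59. The 1676 genes were chosen by the WT effect, which by itself raises r. Across all 10723 genes, effects in EP2/EP4KO cells correlated with those in WT at r = 0.074 and effects in EP2KO cells at r = 0.641. Effects in EP2/EP4KO and EP2KO cells correlated with each other at r = 0.128. Of the 102 genes, 98 were called in WT (96.1%, or 5.85% of the WT genes), and in all 98 the sign of the interaction was opposite to that of the WT effect.

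**Figure D4:**
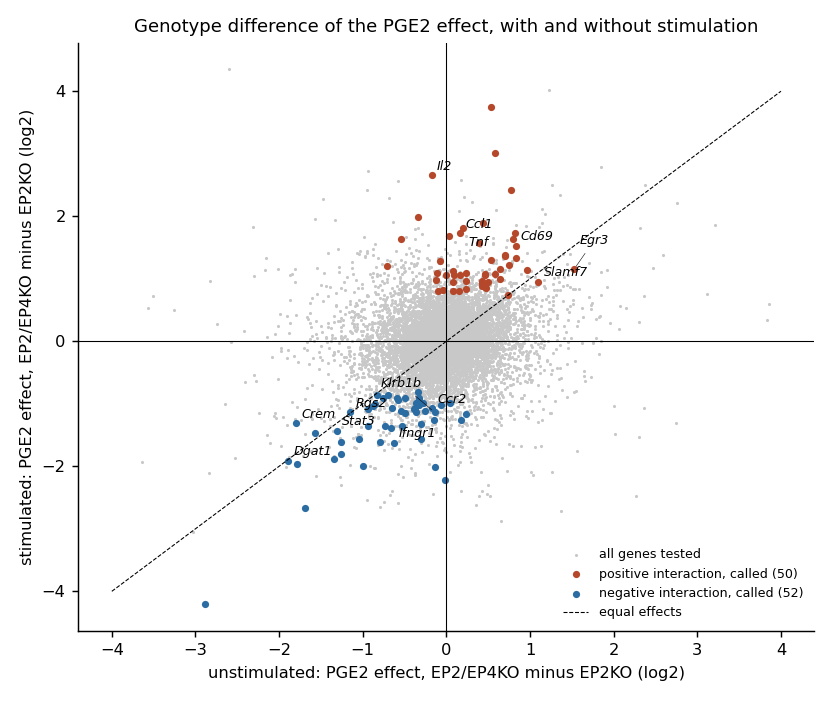
Difference of the PGE2 effect between EP2/EP4KO and EP2KO cells (log2), with anti-NK1.1 stimulation (y axis) and without it (x axis), for all genes tested (grey) and the genes called with stimulation (red, positive; blue, negative). Of the 102 called genes, 89 have the same sign without stimulation, where 5264 of all genes tested are positive and 5459 negative. Il2, Tnf and Ccl1 lie near 0 on the x axis while Crem, Dgat1 and Stat3 lie near the dashed line of equal values.

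The same difference of differences could be taken without stimulation, in 14 other libraries. It called 38 genes (0.354% of genes tested, 13 positive and 25 negative), and 96 (34 and 62) with same-numbered libraries as blocks. Same-numbered pairs correlated here at 0.189 to 0.452 in EP2/EP4KO cells and 0.141 to 0.433 in EP2KO cells. Without EP2/EP4KO PGE2 unstimulated replicate 3 the count was 20. Of the 102 genes, 14 were also called here (13.7% of the 102 and 36.8% of the 38), all 14 with the same sign. Among them Abcb1a, Crem, Dgat1, Irs2, P2ry10, Rgs2, Rnf125, Rundc3b, Stat3 and Trf were negative, and Egr3, Septin11 and Slamf7 were positive. The share called was 11 of the 52 negative genes and 3 of the 50 positive genes, with medians without stimulation of −0.58 and 0.42.

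Crem and Stat3 had interactions of −1.31 and −1.43 with stimulation, beside −1.80 and −1.31 without it. Among cytokines and chemokines the values with stimulation and without it stood apart: 2.66 and −0.18 for Il2, 1.81 and 0.19 for Tnf, and 1.73 and 0.17 for Ccl1. The test of that difference itself called 0 genes (0% of genes tested) in edgeR and also 0 in DESeq2, while 407 had an unadjusted p under 0.05, and alternative fits gave 0 to 5 calls. Adjusted p-values of the difference were 1 for Il2, 0.832 for Tnf and 0.522 for Ccl1. Across the 102 genes the 2 interactions correlated at r = 0.764 with a slope of 0.39, and across all genes tested at r = 0.180. The 102 genes were chosen for large interactions with stimulation, which by itself raises r, so these 2 values cannot be compared.

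**Figure D5:**
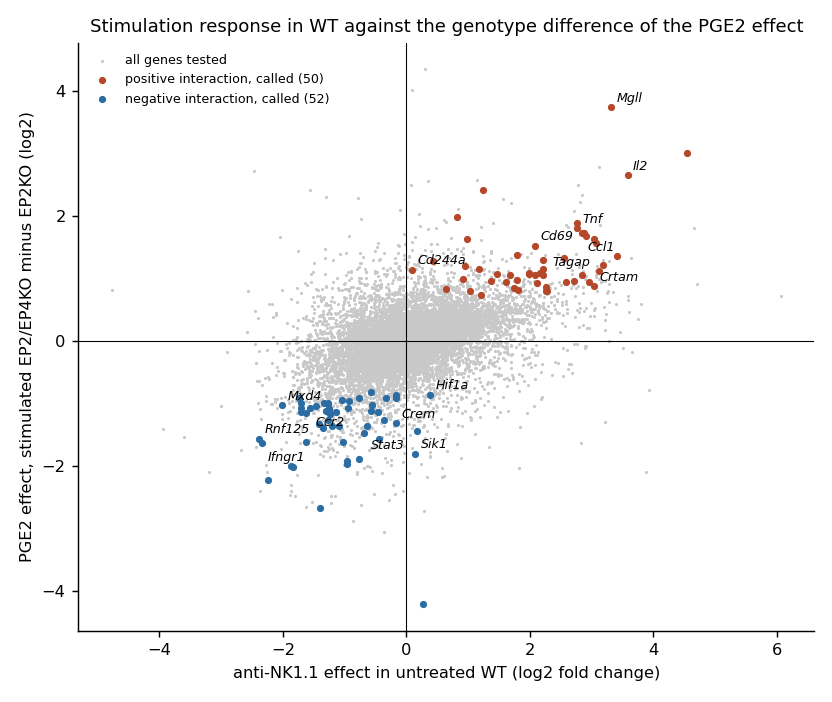
Anti-NK1.1 effect in untreated WT cells (log2 fold change, x axis) against the difference of the PGE2 effect between stimulated EP2/EP4KO and EP2KO cells (log2, y axis) for all genes tested (grey) and called genes (red, positive; blue, negative). Positive genes have a median of 2.19 on the x axis and negative genes one of −1.18, with Stat3, Sik1 and Crem near 0.

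A further comparison, added after the data were seen, set the 102 genes beside the effect of NK1.1 crosslinking in untreated WT cells, which shares no library with the interaction. Stimulation called 4508 genes in WT (42% of genes tested, 23% higher and 19.1% lower). Of the 50 positive genes 48 were higher and 0 lower after stimulation (96%, median 2.19), and of the 52 negative genes 1 was higher and 44 were lower (84.6%, median −1.18). The 50 positive genes, all lowered by PGE2 in EP2KO cells, were thus mostly genes that stimulation raised, such as Egr2 (3.18), Ccl1 (2.85) and Tnf (2.77). The 52 negative genes, all raised by PGE2 in EP2KO cells, were mostly ones that stimulation lowered, such as Ifngr1 (−2.34) and Rnf125 (−2.38). Genes that PGE2 changed in EP2KO cells without a called interaction were not set beside stimulation. The 4 negative genes of the cAMP-PKA-CREB list had smaller effects of stimulation in WT, with Crem at −0.17, Stat3 at 0.17, Sik1 at 0.15 and Rgs2 at −0.46. Hif1a, chosen here after its values were seen, encodes the oxygen-regulated factor HIF-1 alpha and was the 1 negative gene that stimulation raised (0.38), and Cd244a (0.10) was one of the 2 positive genes not called.

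Medium conditioned by BRAFV600E cells that make PGE2 (CM) gave the corresponding difference of differences in stimulated cells, with the same untreated libraries as above and 3 EP2/EP4KO and 4 EP2KO libraries of its own. It called 37 genes (0.345% of genes tested, 22 positive and 15 negative), 73 with DESeq2 and 8 when the fit held only its own libraries. Without EP2/EP4KO untreated replicate 2 the count was 19 and without EP2/EP4KO CM replicate 1 it was 68. Because of the shared libraries the values are given side by side only. Over the 50 positive genes the median was 0.91 with CM beside 1.1 with PGE2, and over the 52 negative genes it was −0.93 beside −1.14. The values with CM and with PGE2 were 1.82 and 1.72 for Pdgfa, −1.42 and −1.62 for Ifngr1, −1.21 and −1.43 for Stat3, 1.49 and 1.81 for Tnf, and 0.54 and 1.00 for Ifng.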

How the data were processed

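Bulk 3' mRNA-seq libraries (oligo-dT priming with barcodes and unique molecular identifiers, per the labels' protocols) were given as a table of whole-number counts per gene, deposited by the authors, for 36273 genes. DESeq2 and the build GRCm38 (mm10) are named per the submitters' processing notes. The aligner, the counting tool, its strand setting and whether molecular identifiers were collapsed are nowhere stated in the labels or the table. If they were not collapsed, PCR copies count as reads and the spread between libraries includes amplification.

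Samples were grouped by their labels. Genes with too few counts were removed with filterByExpr (minimum count 10), which left 10723 genes and 99.21% of counts. A quasi-likelihood model was fitted with edgeR 4.0.16 (limma 3.58.1, R 4.3.3) with TMM normalization to all 64 libraries in 18 groups, and contrasts were tested two-sided with Benjamini-Hochberg adjustment over all genes tested, called at an adjusted p under 0.05. Ptger2 and Ptger4 levels were also compared by an exact permutation test. The script was tested on simulated data, in which 8 of 81 calls were false. Alternatives were RLE size factors, DESeq2 1.42.0, no filter, only the libraries of the contrast, a replicate block, and leaving out each library.

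The genes named are the 15 called genes with a mean log2 CPM of at least 4 and the most negative and the most positive interactions (predicted genes passed over), up to 4 called members of each of 29 gene lists with the smallest p, and a fixed set (the receptors Ptger2 and Ptger4, the targets Crem and Nr4a1, the effectors Ifng, Ccl5, Xcl1, Gzmb and Prf1, and sex-linked genes). Some genes that the rule picks are not reported here. List members that are not called, genes that make up counts of 5 or fewer, and genes called again without stimulation are named beside them, after their values were seen. The comparison, its members and the lists were chosen with earlier results of these data known. The WT anti-NK1.1 comparison, the basophil and mast cell list and the fit without EP2KO replicate 4 were added after the data were seen. Same-numbered libraries with and without PGE2 deviated together in all 3 pairs of stimulated EP2/EP4KO cells (correlations 0.256 to 0.509), all 4 of WT (0.354 to 0.518), and all 3 and 4 of unstimulated EP2/EP4KO (0.189 to 0.452) and EP2KO cells (0.141 to 0.433), but in 3 of 4 of stimulated EP2KO cells (−0.07 to 0.427). Promoters came from the RefSeq table for GRCm38.p6.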

Additional observations from a re-analysis of the deposited data

Results flagged for a closer look

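The response to PGE2 differed between EP2/EP4KO and EP2KO cells at 102 genes after NK1.1 stimulation (0.951% of genes tested) and at 38 without it (0.354%). The response to CM differed at 37 genes after stimulation (0.345%). The test of the stimulated minus the unstimulated difference called 0 genes (0%). The CM and PGE2 comparisons share their untreated libraries, and the difference between them was not tested. In groups of 4, a gap of 1 library to the others above Dixon's critical value was seen in 7 of 138 checks, where chance gives about 6.9. Tnfsf14 was at 32.3 CPM in EP2KO PGE2 replicate 3 against 52.3 to 54.2 CPM in the other 3, and Cd244a was at 35.6 CPM in the same library against 29.6 to 30.0 CPM. Rel was at 702 CPM in EP2KO untreated replicate 4 against 1181 to 1225 CPM. Ptger2 was at 12.6 CPM in EP2KO PGE2 replicate 4 against 5.34 to 6.51 CPM. Eif2s3y, a Y-linked gene, was at 14.5 CPM in EP2KO PGE2 replicate 1 against 2.90 to 4.04 CPM, and Uty was at 0.763 CPM in EP2KO PGE2 replicate 2 and 0 in the others. Basophil and mast cell markers took 0.756% of counts in EP2KO untreated replicate 4 against 0.0721% to 0.172%.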

How the results depend on the processing

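The interaction called 102 genes, 41 (17 positive, 24 negative) with only the libraries of the contrast, and 78 to 119 when single libraries were left out. With the replicate block it called 259 (140 positive, 119 negative), all 102 among them. Of the 4 same-numbered pairs of stimulated EP2KO libraries, 3 deviated together and 1 did not (correlation −0.07). PGE2 calls in stimulated EP2/EP4KO cells were 4 without the filter, 2 with the block, and 0 to 3 without single libraries. For the PGE2 effect in stimulated EP2KO cells the 782 became 520 without the filter, 509 with only their own libraries, 1254 with the block, and 534 to 973 without single libraries. For the PGE2 effect in stimulated WT cells the 1676 became 817 with only their own libraries, 2330 with the block, and 1344 to 1847 without single libraries. The unstimulated interaction had 96 calls with the block and 20 to 41 without single libraries, with 20 to 25 for EP2/EP4KO PGE2 replicates 1 and 3, EP2/EP4KO untreated replicates 1 to 3 and EP2KO PGE2 replicate 3. The stimulated minus unstimulated difference had 5 calls with the block and 0 to 1 without single libraries. The CM interaction had 73 with DESeq2, 169 with the block, 8 with only its own libraries and 19 to 68 without single libraries. No paired analysis was possible because group and block coincide for untreated EP2/EP4KO against EP2KO cells, whose count was 6 to 10 without single libraries, as that of WT stimulation was 3811 to 4514. Of 54 named called genes, 29 kept the call in every alternative run, 23 lost it with only the libraries of the contrast, 19 lost it in another alternative, and 0 changed sign.

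Signs did change for genes that were not called. The Ccl5 interaction was −0.087, −0.043, −0.016 and −0.21 without EP2KO untreated replicate 3, EP2KO PGE2 replicate 4, EP2/EP4KO untreated replicate 3 and EP2/EP4KO PGE2 replicate 1 (range −0.21 to 0.27). That of Nr4a1 was −0.068 without EP2/EP4KO PGE2 replicate 1 (range −0.068 to 0.42). Without single libraries Eif2s3y ran from −0.40 to 0.76, with 0.097, 0.76 and 0.026 above 0, and Kdm5d from −0.69 to 0.96. The Ptger2 difference in untreated cells was −0.013 CPM without EP2KO replicate 4 (range −0.013 to 2.92 CPM), and 6.34 to 8.76 CPM with PGE2. The Ptger4 difference was 44.8 to 69.0 CPM with PGE2 and 13.3 to 22.4 CPM without it. The cause of these shifts was not tested. Depth limits the low genes: 1 count in the median library is 0.718 CPM. Differences of 2-fold and of 1.5-fold were mostly missed in simulated counts (34.3% and 1.49% found).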

Other observations

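Called genes outside the naming rule, chosen here after their values were seen, belonged to groups not described above. The regulators of chromatin Dnmt3a, a DNA methyltransferase, and Kdm6b, a histone H3K27 demethylase, had positive interactions (0.87 ± 0.21, adjusted p = 0.0165 and 0.95 ± 0.22, adjusted p = 0.01), with PGE2 effects of −0.18 ± 0.16 in EP2/EP4KO cells and −1.05 ± 0.14 in EP2KO cells for Dnmt3a and 0.15 ± 0.16 in EP2/EP4KO cells and −0.81 ± 0.14 in EP2KO cells for Kdm6b. Satb1, a chromatin organizer of lymphocytes, had a negative one (−1.02 ± 0.27, adjusted p = 0.0396). Among signalling genes, Jak2, a kinase of cytokine receptors, was positive (1.08 ± 0.24, adjusted p = 0.00772) and Pik3r1, the regulatory subunit of PI3K, and Hif1a were negative (−0.90 ± 0.20, adjusted p = 0.00939 and −0.85 ± 0.21, adjusted p = 0.0179). Klrb1b, a gene of the NK1.1 receptor family that encodes an inhibitory receptor, was negative (−1.14 ± 0.23, adjusted p = 0.00176), and its reads may be shared with near-identical family members or antisense transcripts.

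The positive interactions that were largest in size, those of Mgll (3.75 ± 0.84, adjusted p = 0.00856) and Fam83g (3.02 ± 0.81, adjusted p = 0.049), lay below the level required for naming. Mgll stood at 8.67, 17.2 and 6.4 CPM in EP2/EP4KO cells with PGE2 and 8.03, 8.13 and 15.6 CPM without it, against 0.723, 0.763, 1.62 and 0 CPM in EP2KO cells with PGE2 and 21.5, 7.19, 13.0 and 5.44 CPM without it. Mgll encodes monoacylglycerol lipase, which breaks down the lipid messenger 2-arachidonoylglycerol. Fam83g stood at 9.54, 8.21 and 12.8 CPM in EP2/EP4KO cells with PGE2 and 11.7, 7.50 and 13.5 CPM without it, against 0.723, 0.763, 0 and 0.968 CPM in EP2KO cells with PGE2 and 5.01, 6.47, 6.93 and 5.44 CPM without it. For both genes the EP2KO libraries with PGE2 lay below every other library and held few counts, so the fitted fold changes are imprecise. Vps37b and Emb, at −1.04 ± 0.23 and −1.08 ± 0.25, were among the genes whose 3 EP2/EP4KO libraries with PGE2 lay above the 3 without. PGE2 called 0 genes in EP2/EP4KO cells, and the share of all genes that separate in this way was not counted.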
